A study of Mus musculus with 12 samples.

Results

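Slc2a2, Gckr, Gpi1, Pfkl, Pfkfb1, Khk and Pklr encode proteins by which a liver cell takes up glucose, splits it to pyruvate and admits fructose. They were read by symbol from a table of RPKM (read counts scaled to gene length and to library depth), and all 7 were found among its 24475 genes. The samples were livers of fed mice, 6 wild-type (WT) and 6 Gcg KO libraries. Gcg encodes the precursor of glucagon and of further peptides, so its loss removes these as well. The labels give no strain, sex, age or construction of the allele, and do not state that each library is a mouse of its own; p-values therefore cover the spread between libraries, part of which may be technical. Libraries keep the numbers of their labels (WT 1 to 6, Gcg KO 7 to 12).

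In the liver, glucose crosses the plasma membrane in both directions through a carrier of low affinity, is phosphorylated under the control of an inhibitory protein, and passes down glycolysis to pyruvate. Glucagon, acting through cAMP and protein kinase A, is known to slow this flow: it leads to phosphorylation of liver pyruvate kinase and of the bifunctional enzyme that makes and breaks fructose 2,6-bisphosphate, the activator of phosphofructokinase. Carbohydrate raises transcription of several of these genes through the factor encoded by Mlxipl (ChREBP) and its partner Mlx. RNA-seq measures transcript levels and not phosphorylation.

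All 7 genes had a promoter in the RefSeq set for GRCm38.p6, 11 start sites in all. The 250 bases before the start are shown for the 2 genes that rose in Gcg KO livers and for Khk, which carries an E-box, each 5′ to 3′ on the plus strand. Pklr has an upstream start, known for the erythroid enzyme, and a downstream start, known for the liver enzyme. Capitals mark CACGTG, or a match to a paired motif described after the sequences.
Pklr, downstream start, chr3:89136373-89136622: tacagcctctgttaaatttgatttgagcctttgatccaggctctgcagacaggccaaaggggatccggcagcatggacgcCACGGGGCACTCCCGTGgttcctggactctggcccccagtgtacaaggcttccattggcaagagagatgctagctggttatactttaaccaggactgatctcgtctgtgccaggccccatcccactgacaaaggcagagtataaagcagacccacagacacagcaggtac
Pklr, upstream start, chr3:89135892-89136141: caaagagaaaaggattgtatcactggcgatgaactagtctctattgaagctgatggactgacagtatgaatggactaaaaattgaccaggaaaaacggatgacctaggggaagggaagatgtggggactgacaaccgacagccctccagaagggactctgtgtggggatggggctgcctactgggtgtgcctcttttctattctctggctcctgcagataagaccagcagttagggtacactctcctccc
Slc2a2, chr3:28697653-28697902: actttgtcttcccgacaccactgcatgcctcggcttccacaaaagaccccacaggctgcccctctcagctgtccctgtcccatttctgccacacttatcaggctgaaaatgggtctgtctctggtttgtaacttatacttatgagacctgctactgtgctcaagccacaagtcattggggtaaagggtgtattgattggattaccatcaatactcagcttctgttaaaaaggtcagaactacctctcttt
Khk, chr5:30921309-30921558: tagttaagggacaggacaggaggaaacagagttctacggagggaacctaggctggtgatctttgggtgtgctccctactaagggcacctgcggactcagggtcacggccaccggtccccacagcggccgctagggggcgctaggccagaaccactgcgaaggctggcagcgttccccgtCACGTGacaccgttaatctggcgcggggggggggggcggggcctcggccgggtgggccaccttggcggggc

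Carbohydrate response elements are known as pairs of E-box-like motifs 5 bases apart, and the liver promoter of Pklr is a classical example. The downstream Pklr promoter held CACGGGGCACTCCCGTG, from 170 to 154 bases before the start. The pattern that it fits, CACGNG, any 5 bases and CNCGTG (N is any base), occurred in 13 of 32851 promoters of the same length (0.0396%, both strands) and in 1 of the 11 here. The looser CANGNG, any 5 bases and CNCNTG, which includes the first, occurred in 149 (0.454%) and again in 1 of the 11; both patterns were written after the sequences were seen. The single E-box CACGTG, which can form part of either pattern, occurred in 1978 promoters (6.02%) and among these genes in Khk, 71 to 66 bases before the start. A pair of CANNTG motifs 5 bases apart, which can overlap the other patterns, occurred in 210 promoters (0.639%) and in 0 of the 11. CCAAT, on either strand, occurred in 33.8% of promoters and in 5 of the 11, from 4 genes. These are matches of letters and no measure of binding, and RPKM per gene does not tell the starts of Pklr apart.

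Of the 7 genes, Slc2a2 and Pklr were higher in Gcg KO livers, 0 were lower and 5 did not pass the threshold. The test was limma on log2(RPKM + 0.5), with Benjamini-Hochberg adjustment over 11347 genes with a mean of at least 0.5 RPKM, and a threshold of 0.05 on the adjusted p. Every adjusted p below is from that test unless another is named, fold changes are Gcg KO over WT on that scale, and SE is the standard error of the model. Of all genes tested, 3.87% passed, 1.95% higher and 1.92% lower. Without WT 6, Gcg KO 10 and Gcg KO 12, the 3 libraries highest on the first principal component (17.0 to 28.8, against 6.99 or lower) and lowest in Igfbp1, here said to stand apart, Slc2a2 and Pklr again were the 2 of 7 that passed, beside 2.68% of all genes. The median log2 fold change was 0.28 over the 7 genes and 0.01 over all genes. In whole liver, a change in the number of cells of a type and a change in RNA per cell cannot be told apart.

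**Figure D1:**
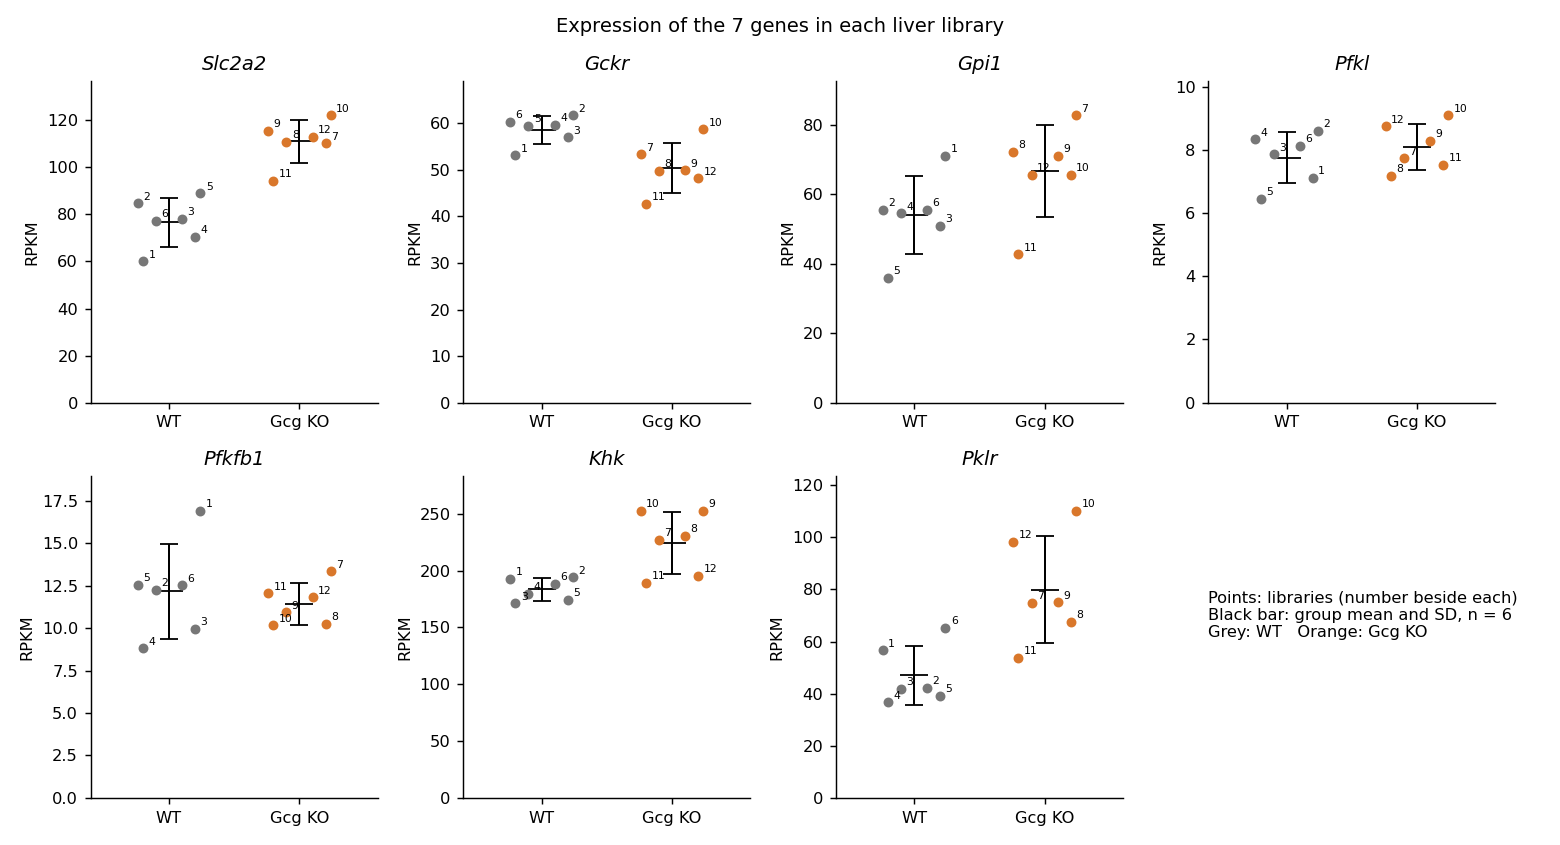
RPKM of each of the 7 genes in 6 WT (grey) and 6 Gcg KO (orange) libraries, numbered as in the labels, and black bars for mean and SD. Only for Slc2a2 do all Gcg KO values lie above all WT values; Pklr, Khk, Gpi1, Gckr, Pfkl and Pfkfb1 overlap.

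Of the transporters, the main hepatocyte carrier of glucose rose. Slc2a2 (Entrez 20526, chromosome 3, 28697903 to 28728361, GRCm38) encodes GLUT2, the low-affinity carrier that lets glucose, and also fructose, in and out of hepatocytes. Its RPKM ran from 60.1 in WT 1 through a median of 77.8 to 88.9 in WT 5, and from 94.3 in Gcg KO 11 through 112 to 122 in Gcg KO 10. The groups did not overlap, as for 3.09% of all tested genes. Means were 76.6 ± 10.3 and 111 ± 9.23 RPKM (SD, n = 6 each), and the log2 fold change was 0.54 ± 0.09 (SE; adjusted p = 0.0046), or 1.45-fold. Slc2a2 passed with every single library left out (adjusted p = 0.0029 to 0.0136). Without the 3 libraries that stand apart the log2 fold change was 0.50 (adjusted p = 0.0498).

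Phosphorylation control and the isomerase step did not pass. Gckr encodes the protein that holds the glucose-phosphorylating enzyme of hepatocytes inactive in the nucleus. It ran from 53.1 to 61.6 RPKM in WT (median 59.5) and from 42.7 to 58.7 RPKM in Gcg KO (median 49.8). All 6 Gcg KO libraries lay below the WT median and 4 below every WT library, while Gcg KO 7 and Gcg KO 10 lay within the WT range. The log2 fold change was -0.22 ± 0.07 (SE, adjusted p = 0.133), with a 95% interval of -0.37 to -0.06 before adjustment.

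Gpi1 encodes glucose-6-phosphate isomerase, which makes fructose 6-phosphate. It ran from 36.0 to 71.0 RPKM in WT (median 55.0) and from 42.7 to 82.6 RPKM in Gcg KO (median 68.3). Here 5 of 6 Gcg KO libraries lay above the WT median, and Gcg KO 11 and WT 5 were the lowest of their groups. The log2 fold change was 0.30 ± 0.16 (SE; 95% interval -0.05 to 0.66; adjusted p = 0.404).

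The committed step showed the least difference. Pfkl, the liver subunit of phosphofructokinase, ran from 6.46 to 8.60 RPKM in WT (median 7.99) and from 7.18 to 9.09 RPKM in Gcg KO (median 8.01). The groups lay on top of each other, with 3 Gcg KO libraries on each side of the WT median. Its log2 fold change was 0.06 ± 0.08 (SE, adjusted p = 0.803), and the 95% interval of -0.12 to 0.24 holds folds between 0.923 and 1.18.

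Pfkfb1 encodes the liver form of the bifunctional enzyme that sets fructose 2,6-bisphosphate. It ran from 8.82 to 16.9 RPKM in WT (median 12.4) and from 10.2 to 13.3 RPKM in Gcg KO (median 11.4). WT 1 held the highest value and WT 4 the lowest of all 12, so the Gcg KO libraries lay inside the WT range. The log2 fold change was -0.07 ± 0.13 (SE; 95% interval -0.34 to 0.21; adjusted p = 0.882), and without WT 1 it was 0.03.

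The exit from glycolysis had the largest log2 fold change among the 7. Pklr (Entrez 18770, chromosome 3, 89136122 to 89146815) encodes the pyruvate kinase of liver and red cells, which makes pyruvate and ATP. It ran from 36.6 RPKM in WT 4 through a median of 42.0 to 65.3 in WT 6, and from 53.9 in Gcg KO 11 through 74.9 to 110.2 in Gcg KO 10. Of the 6 Gcg KO libraries, 5 lay above every WT library, and Gcg KO 11 lay below WT 1 and WT 6. Means were 47.0 ± 11.4 and 80.0 ± 20.7 RPKM (SD, n = 6 each), and the log2 fold change was 0.75 ± 0.18 (SE; 95% interval 0.37 to 1.14; adjusted p = 0.0323), or 1.69-fold.

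That call was close to the threshold. It was lost in 8 of 12 limma fits that left out a single library, those without WT 2, WT 3, WT 4, WT 5, Gcg KO 7, Gcg KO 9, Gcg KO 10 or Gcg KO 12 (adjusted p = 0.0582 to 0.0758), while the log2 fold change of Pklr stayed between 0.65 and 0.86. WT 6, Gcg KO 10 and Gcg KO 12 held the highest Pklr of their groups, at 65.3, 110.2 and 98.2 RPKM. The same libraries had the lowest levels of Pck1, an enzyme of gluconeogenesis (504, 189 and 85.3 RPKM, against 845 or more in the other 9). They also had the lowest levels of Igfbp1, a secreted protein lowered by insulin (6.22, 14.2 and 9.35 RPKM, against 159 or more). Without these 3 the log2 fold change of Pklr was 0.65 (adjusted p = 0.0353), with 5 WT and 4 Gcg KO libraries.

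**Figure D2:**
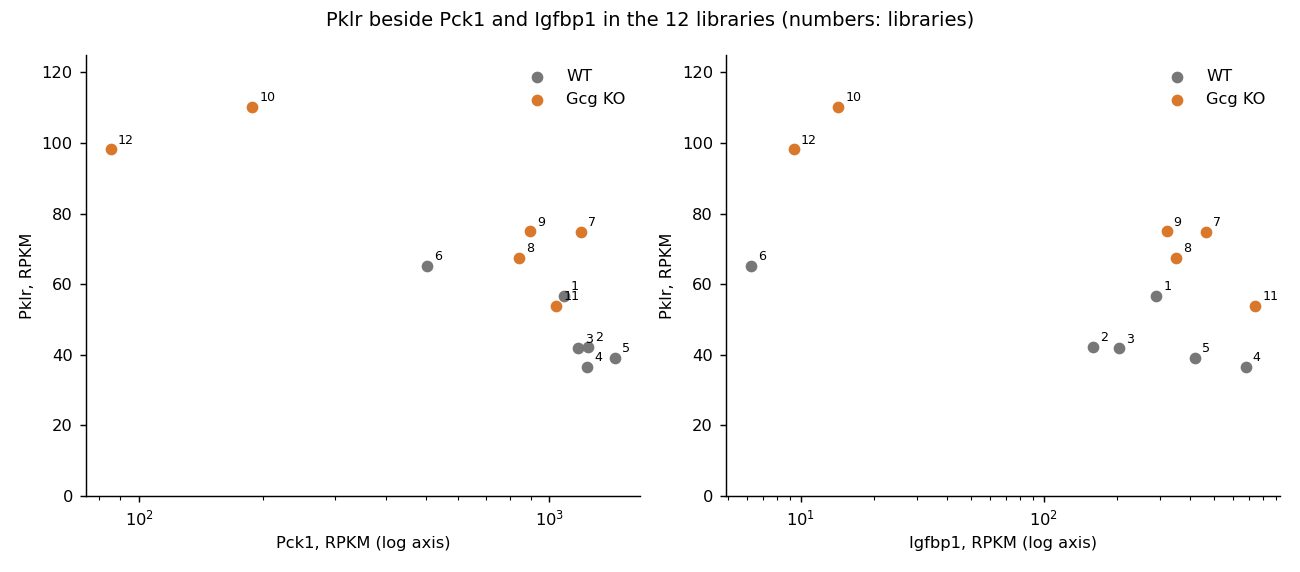
Pklr in RPKM (vertical) beside Pck1 (left) and Igfbp1 (right) in RPKM on a log axis, each numbered point a library (WT grey, Gcg KO orange). Within each genotype the libraries with the lowest Pck1 and Igfbp1, WT 6, Gcg KO 10 and Gcg KO 12, hold the highest Pklr. Gcg KO 7, 8 and 9 lie above WT 1 to 5 at levels of Pck1 from 845 to 1196 RPKM. Gcg KO 11 lies within that span of Pck1 (1037 RPKM). Its Pklr (53.9 RPKM) is below that of WT 1 (56.7 RPKM).

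Fructose entry was higher in most Gcg KO libraries without passing. Khk encodes ketohexokinase, which phosphorylates fructose to fructose 1-phosphate and so bypasses the phosphofructokinase step. It ran from 171 RPKM in WT 3 through a median of 184 to 194 in WT 2, and from 189 in Gcg KO 11 through 229 to 253 in Gcg KO 9. All 6 Gcg KO libraries lay above the WT median and 5 above every WT library. The log2 fold change was 0.28 ± 0.08 (SE; 95% interval 0.11 to 0.46; adjusted p = 0.0699). Khk passed without Gcg KO 11 (log2 fold change 0.33, adjusted p = 0.0251).

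The levels of the 7 genes, which RPKM allows to be ranked per length, spanned from Khk (183 ± 9.80 RPKM in WT) to Pfkl (7.75 ± 0.810). In WT the order was Khk, Slc2a2, Gckr, Gpi1, Pklr, Pfkfb1, Pfkl. Gckr and Gpi1, and Gpi1 and Pklr, had overlapping ranges in both genotypes; Slc2a2 and Gckr overlapped in WT, where 6 of 6 libraries had more Slc2a2, and no longer did in Gcg KO. In Gcg KO the mean of Pklr came after that of Slc2a2 and before Gpi1 (66.6 ± 13.3 RPKM) and Gckr (50.4 ± 5.34). Relative to its mean Pklr varied most within groups, with an SD of 24.2% in WT and 25.8% in Gcg KO, and in WT Gckr and Khk varied least, with 5.23% and 5.34%. Gcg KO 11 was the lowest Gcg KO library for 5 of the 7 genes and Gcg KO 10 the highest for 4.

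Within their gene families the liver forms were compared as a share of the summed RPKM of each library, with exact two-sided permutation tests over every split of the 12 libraries into 6 and 6, adjusted over 5 share and ratio tests. Slc2a2 made up 76.6% ± 2.04 of the summed level of 11 transporter genes in WT and 81.9% ± 1.92 in Gcg KO (SD, n = 6 each; exact permutation p = 0.00216, adjusted p = 0.0054). The WT shares of Slc2a2 ended at 79.5% and the Gcg KO shares began at 79.8%, so that all 6 Gcg KO libraries were higher. Slc2a2 is most of this sum and its RPKM did not overlap either. Its share therefore mostly repeats the rise of Slc2a2 and is no separate result. Slc2a9, a urate carrier and the next in level, had 11.7 ± 1.65 and 12.3 ± 2.21 RPKM (limma adjusted p = 0.870). Pklr made up 88.7% ± 2.58 and 92.3% ± 2.29 of Pklr and Pkm, the pyruvate kinase of most other tissues (exact permutation p = 0.0303, adjusted p = 0.0505). Pkm itself had 5.75 ± 0.410 and 6.40 ± 1.03 RPKM (limma adjusted p = 0.606).

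Among the phosphofructokinases the share of Pfkl did not pass, at 55.7% ± 1.70 in WT and 53.4% ± 3.36 in Gcg KO (exact permutation p = 0.177, adjusted p = 0.177). Pfkm, the muscle form, had 5.61 ± 0.825 and 6.53 ± 0.650 RPKM (limma adjusted p = 0.318), and Pfkp, the platelet form, 0.585 ± 0.130 and 0.537 ± 0.0803 RPKM (limma adjusted p = 0.851). Without WT 6, Gcg KO 10 and Gcg KO 12 the share of Pfkl fell from 56.2% to 52.0% (exact permutation p = 0.0238, adjusted p = 0.0298, 5 WT and 4 Gcg KO libraries).

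Glycolytic enzymes were set beside gluconeogenic enzymes that work against them. Fbp1, fructose bisphosphatase, undoes the reaction of phosphofructokinase and fell from 540 ± 29.4 to 352 ± 24.3 RPKM (change of -0.61 ± 0.06 SE in log2, limma adjusted p = 8.7e-05). Log2 of Pfkl over Fbp1 was -6.04 ± 0.12 in WT and -5.36 ± 0.07 in Gcg KO (SD, n = 6 each), a difference of 0.67 (exact permutation p = 0.00216, the smallest possible, adjusted p = 0.0054). The groups did not overlap in this ratio, nor in Fbp1 alone, as for 3.09% of all tested genes. Pfkl itself changed by 0.06 in log2, so the ratio mostly repeats the fall of Fbp1 and is no separate result. Pck1, unlike Fbp1, does not itself undo the reaction that it was set against, that of Pklr. Log2 of Pklr over Pck1 was -4.51 ± 0.84 in WT and -2.67 ± 1.89 in Gcg KO, a difference of 1.84 (exact permutation p = 0.0433, adjusted p = 0.0541). Pck1 itself changed by -1.09 ± 0.59 SE in log2 and did not pass (limma adjusted p = 0.4075). Pklr changed by 0.75, so this ratio joins both changes and is no separate result. Gcg KO 12 (0.20) and Gcg KO 10 (-0.77) stood far above the other 4 Gcg KO libraries, which ran from -4.25 to -3.57, and WT 6 (-2.94) stood above the other WT libraries. Without these 3 the difference was 0.96 (exact permutation p = 0.0238, adjusted p = 0.0298).

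**Figure D3:**
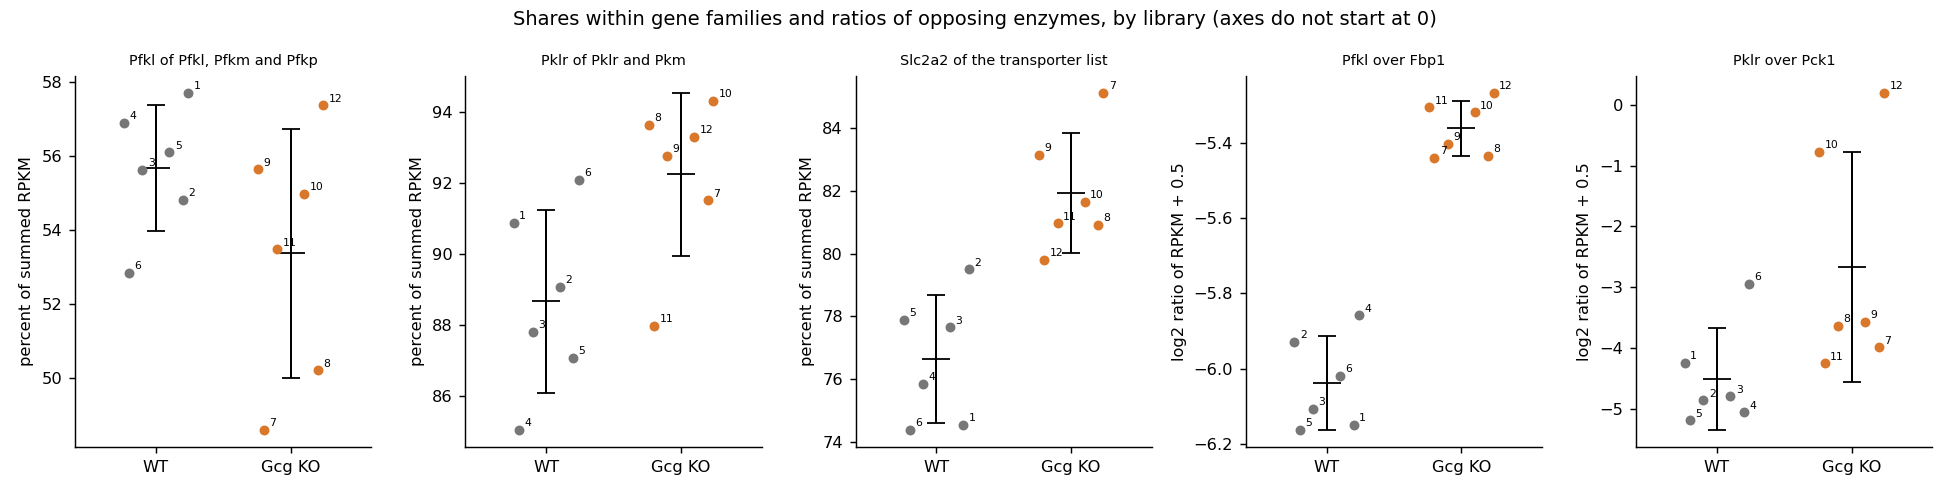
Share of the liver form in the summed RPKM of its family (3 left panels, percent) and log2 ratio of a glycolytic over a gluconeogenic enzyme (2 right panels), by library, and black bars for mean and SD (n = 6). All Gcg KO libraries lie above all WT libraries for the share of Slc2a2 and for Pfkl over Fbp1, and the groups overlap in the other panels.

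The other genes of the pathway were read from 7 lists of 88 distinct genes, of which 87 were in the table and 72 were tested. Of the 72, 5 rose, 0 fell and 67 did not pass, beside 1.95% of all genes higher. The 5 were Slc2a2, Pklr, Aldoc, Txnip and Me1. Aldoc, an aldolase best known from brain, rose from 3.75 ± 0.712 to 6.01 ± 1.30 RPKM (0.61 ± 0.14 SE in log2, adjusted p = 0.0276). Its call was lost in 7 of 12 fits that left out a single library, those without WT 2, WT 3, WT 5, WT 6, Gcg KO 7, Gcg KO 10 or Gcg KO 12 (limma adjusted p = 0.0505 to 0.0663). Without the 3 libraries that stand apart, Aldoc had a log2 fold change of 0.49 (limma adjusted p = 0.149).

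Glycolysis enzymes otherwise did not pass, with 2 of 18 tested members higher (1.95% of all genes), 0 lower and a median log2 fold change of 0.06. Gapdh, which oxidises glyceraldehyde 3-phosphate, was among the most abundant (981 ± 96.0 and 935 ± 47.7 RPKM, adjusted p = 0.748). Several of these enzymes have processed copies in the genome, and the treatment of reads that fit several copies was unstated (not given in the sources used here). In the fructose and polyol list 0 of 8 tested genes passed, with 3, all higher, at an unadjusted p under 0.05, beside 15.7% of all genes. Sord, sorbitol dehydrogenase, had 528 ± 39.9 and 542 ± 40.0 RPKM (limma adjusted p = 0.864). Tkfc, triokinase, which acts further along the fructose route, had 103 ± 9.75 and 128 ± 15.4 RPKM (limma adjusted p = 0.0752); it was chosen after its values were seen.

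Among 10 tested regulators of glycolysis, Txnip rose, 0 fell and 9 did not pass, beside 1.95% of all genes higher. Txnip encodes a thioredoxin-binding protein that restrains glucose uptake and is known as a target of ChREBP. It ran from 7.20 RPKM in WT 1 through a median of 16.2 to 40.1 in WT 4, and from 32.4 in Gcg KO 10 through 49.4 to 118 in Gcg KO 11. The groups overlapped through WT 4, and the log2 fold change was 1.70 ± 0.40 (SE, adjusted p = 0.0301), or 3.25-fold. Gcg KO 10 and Gcg KO 12, highest or next in Pklr, had the lowest Txnip of their group, and Gcg KO 11, lowest in Pklr, had the highest. Without these 2 and WT 6 the log2 fold change of Txnip was 2.07 (adjusted p = 0.0406). The call of Txnip was lost in 6 of 12 limma fits, those without WT 1, WT 2, WT 3, Gcg KO 7, Gcg KO 8 or Gcg KO 9 (adjusted p = 0.0528 to 0.0755). Mlxipl, which encodes ChREBP, had 85.1 ± 10.7 and 100.2 ± 13.7 RPKM (log2 fold change 0.23 ± 0.11 SE, adjusted p = 0.304).

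The carbohydrate-responsive list, which holds 5 of the 7 genes, had 17 tested members. Of these Slc2a2, Pklr, Txnip and Me1 rose, 0 fell and 13 did not pass, beside 1.95% of all genes higher and 1.92% lower. The list was chosen with earlier results of these data known. At an unadjusted p under 0.05 there were 9 higher and 2 lower members, beside 15.7% of all genes in either direction. The 2 lower, named after their values were seen, were Acly and Arrdc4. Acly had 74.6 ± 11.9 and 59.3 ± 8.27 RPKM (limma adjusted p = 0.165), and Arrdc4 had 2.60 ± 0.453 and 1.925 ± 0.395 RPKM (limma adjusted p = 0.181). The median log2 fold change was 0.31, against 0.01 over all genes, and 15 of 17 were above 0, beside 54.3% of all genes. Me1, malic enzyme, which makes NADPH for fat synthesis, rose from 36.0 ± 18.0 to 83.0 ± 20.7 RPKM (1.28 ± 0.29 SE in log2, adjusted p = 0.0269). The call of Me1 was lost in 9 of 12 fits, those without WT 1, WT 3, WT 4, WT 5, Gcg KO 7, Gcg KO 8, Gcg KO 9, Gcg KO 10 or Gcg KO 12 (limma adjusted p = 0.0508 to 0.0659). Without the 3 libraries that stand apart, Me1 had a log2 fold change of 1.29 (limma adjusted p = 0.0832). In that fit Fgf21, a hormone secreted by the liver, passed (log2 fold change 1.35, limma adjusted p = 0.0031). With it 4 of 17 passed there too, beside 2.68% of all genes. Over all 12 libraries Fgf21, chosen after its values were seen, had 0.390 ± 0.234 and 1.46 ± 0.852 RPKM (limma adjusted p = 0.0552). Thrsp, a lipogenic protein, had 146 ± 56.4 and 212 ± 66.2 RPKM (adjusted p = 0.276).

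**Figure D4:**
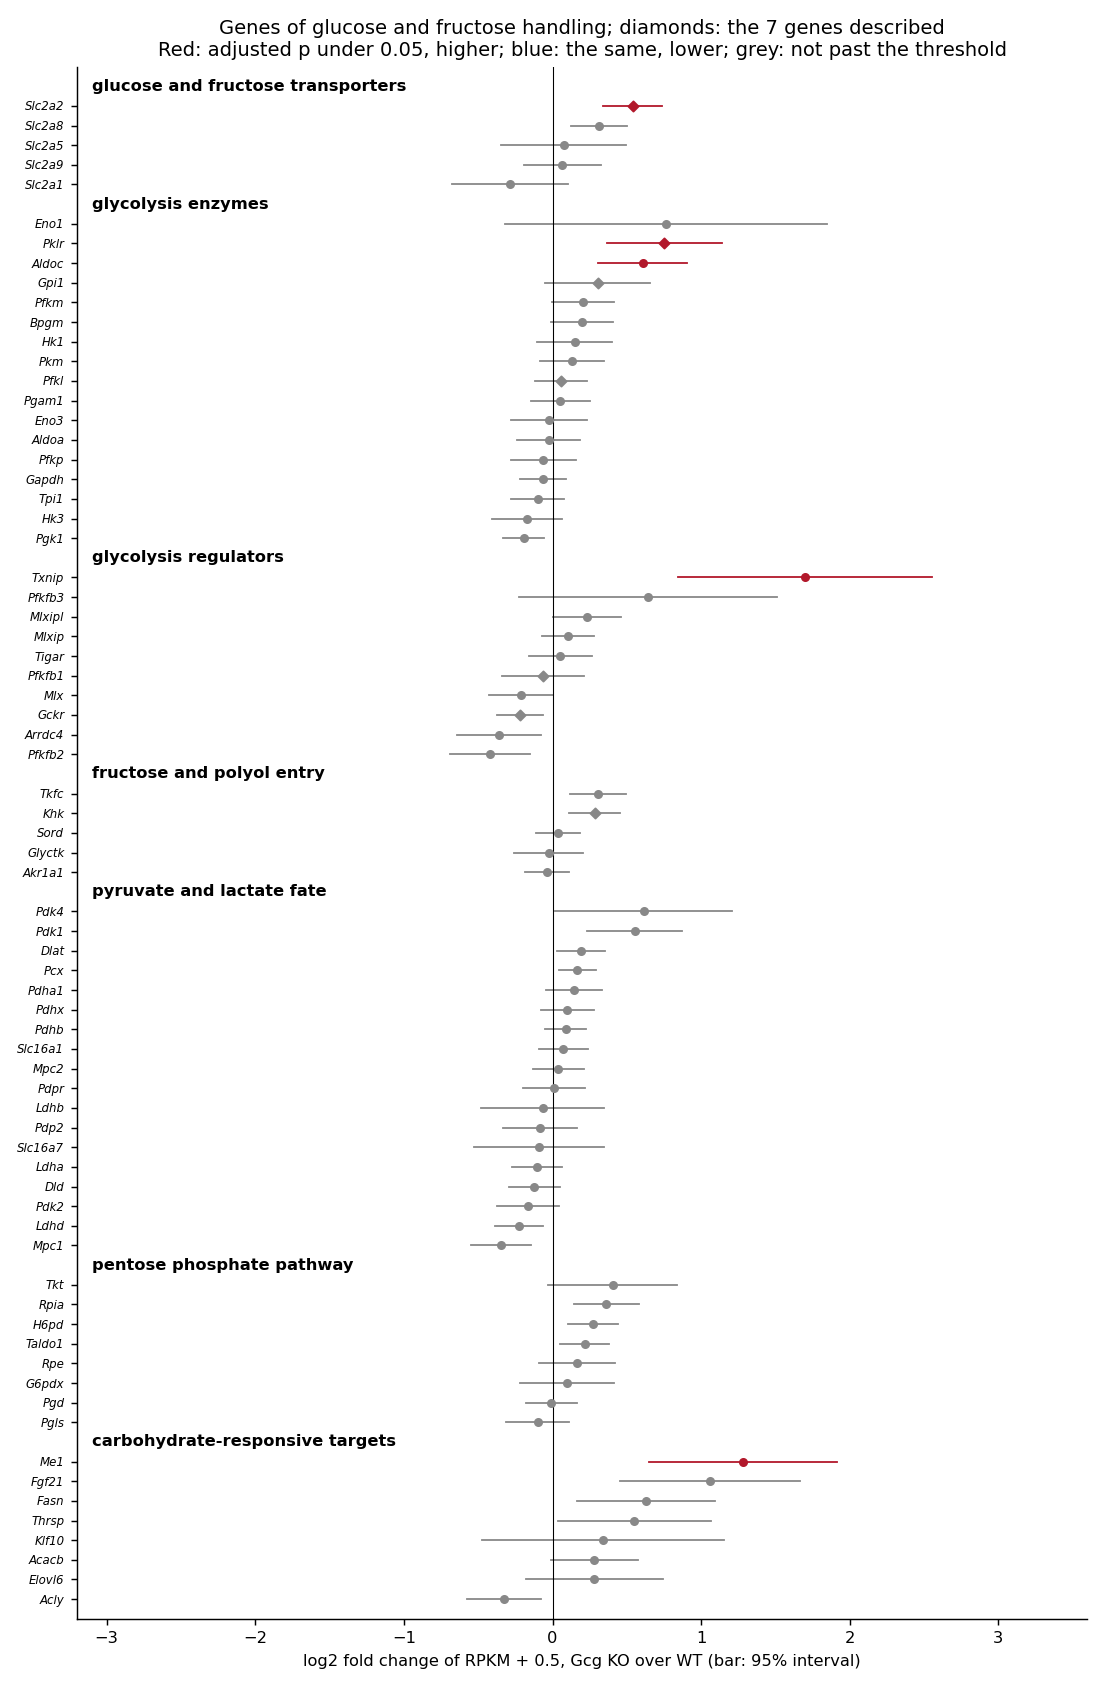
Log2 fold change of RPKM + 0.5, Gcg KO over WT, with its 95% interval, for 71 of the 72 tested genes of the 7 pathway lists, each drawn under the first list that holds it; diamonds are the 7 genes described. Red marks the 5 that passed upwards (Slc2a2, Pklr, Aldoc, Txnip and Me1), 0 passed downwards, and grey genes did not pass.

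Beyond pyruvate, 0 of 18 tested genes of pyruvate and lactate fate passed in either direction, with 4 higher and 2 lower at an unadjusted p under 0.05 (15.7% of all genes) and a median log2 fold change of 0.02. Ldha, lactate dehydrogenase A, had 323 ± 28.0 and 302 ± 27.3 RPKM (limma adjusted p = 0.607). Mpc2, a subunit of the mitochondrial pyruvate carrier, had 135 ± 15.9 and 138 ± 8.01 RPKM (limma adjusted p = 0.886). Its partner Mpc1, chosen after its values were seen, had 118 ± 12.4 and 92.5 ± 12.7 RPKM (limma adjusted p = 0.0617), and fell without the 3 libraries that stand apart (log2 fold change -0.45, limma adjusted p = 0.0275). Of 8 pentose phosphate genes 0 passed, with 3, all higher, at an unadjusted p under 0.05 (15.7% of all genes). The most abundant, H6pd of the endoplasmic reticulum, had 95.3 ± 6.67 and 116 ± 13.3 RPKM (limma adjusted p = 0.0799), and Taldo1, transaldolase, had 72.5 ± 7.26 and 84.1 ± 6.96 RPKM (limma adjusted p = 0.162).

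Genes whose pattern over the 12 libraries was most like that of each gene were ranked by Pearson's r of log2(RPKM + 0.5) among 3858 named genes of at least 10 RPKM, as a description. The 12 points share genotype and the 3 libraries that stand apart. Nearest to Slc2a2 were Slco1a1, an organic anion carrier (r = 0.95), and Gbe1, the glycogen branching enzyme (r = 0.90). Both also rose, Slco1a1 from 118 ± 18.7 to 187 ± 14.8 RPKM (limma adjusted p = 0.0015) and Gbe1 from 28.8 ± 3.87 to 50.1 ± 4.37 RPKM (limma adjusted p = 2.3e-04). With group means removed the likeness to Slc2a2 was 0.78 for Slco1a1 and 0.53 for Gbe1. Nearest to Pklr were Anxa4, an annexin (0.93), and Tango2 (0.93), neither of which passed the test (limma adjusted p = 0.110 and 0.321). Nearest to Khk were Ugt1a6b, a glucuronosyltransferase (0.90), and Pygl, liver glycogen phosphorylase (0.89). Nearest to Gckr were Uox, urate oxidase (0.95), and Uroc1, urocanase (0.94). For Gpi1 they were Ttc23 (0.92) and Clybl (0.85), for Pfkl Ggact (0.89) and Ormdl1 (0.89), and for Pfkfb1 it was Uap1 (0.93).

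Across the series, the step between low values put the depth at 10300000 to 15000000 reads a library, and the lowest value of any of the 7 genes, 6.46 RPKM of Pfkl, was worth about 66.5 reads per kilobase at the lowest depth. Gcg was listed at 0 in all 12 libraries and checks no label in liver, and its receptor Gcgr had 92.1 ± 3.16 and 96.2 ± 4.53 RPKM (adjusted p = 0.618). Hepatocyte markers summed to 43080 to 57500 RPKM in WT and 46100 to 56770 in Gcg KO, and 0 of 6 passed. Of other cell markers, Lyve1 of endothelium and Spp1 of bile ducts rose, and Hbb-bs of red cells and Cela1 of pancreas fell, out of 30 tested, beside 3.87% of all genes. The other 5 endothelial markers did not pass. Of the 6 pancreas markers, 4 were at 0 in every library and Cela1 was the only 1 tested, so its fall cannot be read as a change in pancreas tissue. Of 12 limma fits that each left out a library, Hbb-bs passed in 1, that without WT 5, and Hbb-bs and Cela1 did not pass without the 3 libraries that stand apart (limma adjusted p = 0.206 and 0.105). Summed bile duct markers did not overlap, with 14.5 to 27.8 RPKM in WT and 35.2 to 249 in Gcg KO, most of it Spp1 (17.8 ± 4.75 and 89.0 ± 79.4 RPKM). The other 2 tested bile duct markers, named after their values were seen, did not pass and went opposite ways. Sox9 had 1.23 ± 0.174 and 1.85 ± 0.551 RPKM (limma adjusted p = 0.130), and Krt19 had 1.015 ± 0.277 and 0.887 ± 0.425 RPKM (limma adjusted p = 0.788). Summed endothelial markers ran from 55.7 to 73.5 RPKM in WT and from 59.8 to 94.2 in Gcg KO. Summed red cell markers ran from 235 to 441 RPKM in WT and from 239 to 305 in Gcg KO, and immature red cells also express Pklr. Neutrophil markers summed to 1.34 to 2.12 RPKM in the 3 libraries that stand apart. The median of that sum was 30.83 RPKM over all WT libraries and 24.85 RPKM over all Gcg KO libraries. The part of these other cells in the results was not tested.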

How the data were processed

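The authors deposited 1 table of RPKM values per gene and library; per the labels' protocols, polyadenylated RNA of frozen liver gave strand-specific libraries. GRCm38, FastQC and CASAVA 1.8.2 appear in the submitters' processing notes. Aligner, counting tool and annotation were unstated (not given in the sources used here). Genes with a mean of at least 0.5 RPKM (11347) were tested on log2(RPKM + 0.5) with limma 3.58.1 in R 4.3.3, fitting a mean-variance trend, two-sided, Gcg KO against WT, with no covariate. This understates changes of low genes. The 7 genes and all lists were chosen with earlier results of these data known.

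Named genes were the 7, list genes past the threshold, the 2 most abundant of each list, 5 reference genes and the 2 nearest in pattern to each of the 7; others are marked as chosen after their values were seen, and some genes that the rule selects are not reported here. Depth came from the lowest step of RPKM times transcript length in genes with 1 GENCODE transcript. Promoters were the 250 bases before RefSeq starts. Of the Entrez identifiers, 99.6% matched the RefSeq table that gave coordinates. Alternatives changed the pseudocount, filter, scaling, trend and weights, and left out each library or, added after the data were seen, 3 libraries. On simulated data with 11356 genes tested, the shifted genes were drawn from those with a mean of at least 1 RPKM. The test recovered 86 of 100 genes shifted 1.5-fold and 47 of 50 shifted 2-fold, with 5 false calls among 187. Recovery of genes below that level was not tested. Each simulated gene varied independently of the others, while the real libraries share patterns, as in the 3 that stand apart. Recovery and false calls may therefore differ in the real data. Shares and ratios were tested by exact permutation.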

Additional observations from a re-analysis of the deposited data

Results flagged for a closer look

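Me1, malic enzyme, was low in a single Gcg KO library. Gcg KO 11 had 42.65 RPKM, while the other 5 Gcg KO libraries lay between 80.9 and 99.96 RPKM, and the gap of Gcg KO 11 to the nearest was 0.667 of the range of the group. Among 30 group comparisons of this kind over the genes, shares and ratios, this was the only value set so far apart, and chance sets apart about 1 in 20. The same library was the lowest of its group for Slc2a2, Gckr, Gpi1, Khk and Pklr.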

How the results depend on the processing

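Slc2a2 passed under all 21 alternatives (log2 fold change 0.47 to 0.58), Pklr under 12 (0.65 to 0.86) and Khk under 2, array weights and the fit without Gcg KO 11; Gckr, Gpi1, Pfkl and Pfkfb1 passed under 0 of 21. The number of the 7 genes past the threshold was 1 with no filter on low values, where more genes share the adjustment, and 1 to 3 with a single library left out. Of the pathway genes, 1 passed with no filter, 8 with median-ratio scaling, 9 with quantile normalization and 12 with array weights, against 5, and 1 to 8 with a library left out; the cause was not tested. Over all genes 439 passed, 371 with no filter, 462 with median-ratio scaling, 470 with quantile normalization and 593 with array weights. The count over all genes was 280 to 472 with a library left out. Pfkfb1 turned from -0.07 to 0.032 without WT 1 and ranged from -0.15 to 0.03 with a library left out. With a library left out, the share difference ranged from -3.08 to -1.33 percentage points for Pfkl, 2.86 to 4.44 for Pklr and 4.66 to 5.88 for Slc2a2, and the log2 ratio difference from 0.65 to 0.71 for Pfkl over Fbp1 and 1.27 to 2.16 for Pklr over Pck1. The last, and the share of Pklr, passed without WT 6 or Gcg KO 11. Without the 3 libraries the share of Pfkl (-4.25) and Pklr over Pck1 (0.96) passed. No paired analysis was possible because the groups share no replicate numbers. The lowest value of the 7 genes was worth about 66.5 reads per kilobase, and the part of depth in their spread was not tested.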
